A study of Mus musculus with 6 samples.

Results

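Stc1 and Stc2 are the stanniocalcin genes, and both were higher in each brain lacking Mfsd7c than in each wild-type brain. Stc2 averaged 18.7 ± 4.63 CPM in the knockout group and 3.31 ± 0.471 CPM in the wild-type group (SD, n = 3 each). Stc1 averaged 8.83 ± 1.05 CPM in the knockout group and 5.53 ± 0.246 CPM in the wild-type group (SD, n = 3 each). CPM is a gene's count per 1000000 counts of its library, after scaling. The 2 genes were taken by symbol from a count table of 52459 gene symbols, and both were found there. They were picked because of how they differed between these same libraries, so their knockout to wild-type differences are given as a description, with no test.

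The tissue was whole embryonic brain of C57BL/6 mice at E14.5, sequenced as bulk RNA. One group was 3 embryos labelled Mfsd7c-/- (libraries KO1, KO2 and KO3), and the other was 3 embryos labelled wild type (libraries WT1, WT2 and WT3). The labels give no litter, sex or allele design, so differences in these cannot be told apart from genotype by the labels. The p-values below set the group difference against the spread within groups, for these 6 libraries only. Mfsd7c, also named Flvcr2, encodes a membrane transporter. It had 119, 129 and 130 counts in KO1, KO2 and KO3, against 206, 291 and 259 counts in WT1, WT2 and WT3. The log2 fold change was -0.96 (SE 0.147, edgeR adjusted p = 0.0271). The call was lost when any one library but WT1 was left out (edgeR adjusted p from 0.109 to 0.189). It was also lost with a term for sex, taken from Xist counts (edgeR adjusted p = 0.170). Without both WT2 and WT3 the log2 fold change of Mfsd7c was -0.79. Reads of Mfsd7c were thus still counted in the libraries labelled knockout. The table has 1 number per gene, so where in Mfsd7c those reads lie is not known.

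Stanniocalcins are secreted glycoprotein hormones, first known from fish, where they lower calcium uptake. Mammals make them in many tissues, and they act locally. Stanniocalcin 2 binds the metalloprotease PAPP-A covalently and blocks it, and stanniocalcin 1 also inhibits this protease, which otherwise cuts IGF-binding proteins and frees insulin-like growth factors. Both genes are known to be induced by low oxygen through hypoxia-inducible factor, and Stc2 also by the unfolded protein response through PERK and ATF4. In brain, stanniocalcins are made by neurons, among other cells, and have been studied as protective factors in hypoxia.

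Total counts ranged from 43784619 to 50549673 per library. The 14 markers of developing brain summed to 6348 to 6730 CPM in knockout libraries and 6228 to 6871 CPM in wild-type libraries, and none of them was at 0 in any library. Genes of other regions and tissues differed between libraries. Markers of hindbrain and spinal cord, which are Hox genes, summed to 0.591 to 2.36 CPM in knockout libraries. In WT1, WT2 and WT3 they summed to 3.92, 99.8 and 33.9 CPM, so the groups did not overlap. The median log2 fold change of the 7 Hox genes tested was -4.53. Of these 7, 0 passed in edgeR, 6 had an unadjusted p under 0.05, all lower in knockout, DESeq2 called 2 and limma-voom called 0. The share of all genes with an unadjusted p under 0.05 is not given here. The part of the Hox difference in the stanniocalcin levels was not tested. Epidermal markers summed to 491, 33.5 and 92.7 CPM in KO1, KO2 and KO3, against 422, 38.0 and 28.5 CPM in WT1, WT2 and WT3. WT2 was the library with 82198 Xist counts, against 6 to 27 in the other 5.

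In the GENCODE M21 annotation on GRCm38, Stc2 (ENSMUSG00000020303.2) lies on the minus strand of chromosome 11 from 31357307 to 31370074, and its longest transcript model has 4 exons. Stc1 (ENSMUSG00000014813.9) lies on the plus strand of chromosome 14 from 69029238 to 69041804, also with 4 exons. The 250 bases before the RefSeq start of Stc2, the gene with the larger difference, are shown because motifs of the factors known to induce it were looked for there. Of the 2 genes, 1 was matched in the RefSeq promoter table, whose build is GRCm38.p6. The window is chr11:31370062-31370311, read on the minus strand, and capitals mark matches to GCGTG and CCAAT on either strand.
Stc2: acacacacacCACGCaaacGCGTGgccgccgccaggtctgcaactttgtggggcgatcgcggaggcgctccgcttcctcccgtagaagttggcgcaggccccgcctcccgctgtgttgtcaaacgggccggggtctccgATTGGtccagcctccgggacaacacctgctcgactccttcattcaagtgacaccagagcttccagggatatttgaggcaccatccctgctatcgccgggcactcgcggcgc

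ACGTG and GCGTG are core motifs of hypoxia-inducible factor. GCGTG was found 2 times in the Stc2 window, from 240 to 236 bases before the start on the minus strand of the window and from 231 to 227 bases before it on the plus strand. Of 32851 promoter windows of this length, 28.2% held GCGTG at least once and 8.63% held it at least 2 times. ACGTG was not in these letters, and 16.6% of windows held it. TGATGNAA, a motif bound by ATF4 with its partners, was not in these letters either, and 3.45% of windows held it. CCAAT, the motif of nuclear factor Y, was found 1 time, on the minus strand from 111 to 107 bases before the start, and 33.8% of windows held it. CCACG, one end of the endoplasmic reticulum stress element, was found 2 times, and both matches overlap those of GCGTG by 4 bases. It was in 28.3% of windows. TATAAA was not in these letters, and 12.4% of windows held it. The window was rich in G and C, at 64.4% of its bases, against a median of 52.4% over all windows. A match describes letters and was not tested as a binding site.

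Stc2 had 805, 716 and 1120 counts in KO1, KO2 and KO3, against 167, 142 and 168 counts in WT1, WT2 and WT3. Scaled for library size, these were 18.7, 14.1 and 23.4 CPM in knockout brains, against 3.77, 2.82 and 3.35 CPM in wild-type brains. KO3 was the highest library and WT2 the lowest, and the groups did not overlap. The lowest knockout value was 3.75 times the highest wild-type value. The log2 fold change of Stc2 was 2.50 (SE 0.198), or 5.65-fold higher in knockout brains.

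Stc1 had 359, 412 and 481 counts in KO1, KO2 and KO3, against 257, 276 and 266 counts in WT1, WT2 and WT3. In CPM these were 8.32, 8.12 and 10.0 in knockout brains, against 5.79, 5.49 and 5.31 in wild-type brains. KO3 was again the highest library, and the groups did not overlap. The gap was narrower than that of Stc2, with the lowest knockout value at 1.40 times the highest wild-type value. The log2 fold change of Stc1 was 0.67 (SE 0.125), or 1.60-fold higher in knockout brains.

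Of 19565 genes tested with edgeR's quasi-likelihood test, 122 passed an adjusted p of 0.05 as higher in knockout, which is 0.624% of them. Groups that did not overlap, with knockout higher, were seen in 7.84% of all genes tested. Since both members were chosen on this contrast, nothing is read from these shares about them. By the size of its fold change, Stc2 ranked 11 and Stc1 ranked 176 among the 15494 genes with a mean of at least 1 CPM, where rank 1 is the largest increase. The authors' deposited table gave a log2 fold change of 2.50 (SE 0.195) for Stc2 and 0.68 (SE 0.147) for Stc1, from the same 6 libraries. In bulk tissue, more cells of a type and more RNA per cell cannot be told apart, which applies to every level given here.

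**Figure D1:**
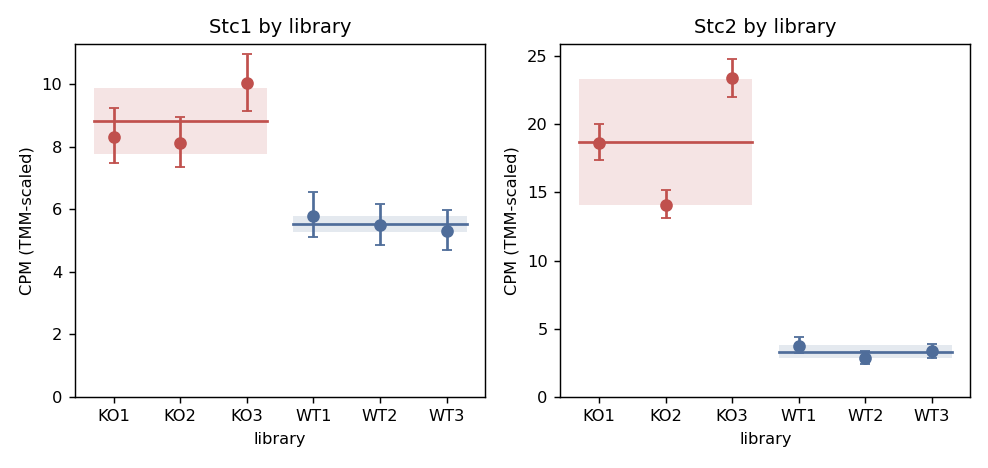
CPM of Stc1 (left) and Stc2 (right) in each library, knockout (KO) replicates left of wild-type (WT) replicates. Points are libraries with exact 95% Poisson intervals for counting error, lines are group means and shaded bands are ± 1 SD (n = 3). The Stc2 values lie at 14.1 to 23.4 CPM in knockout and 2.82 to 3.77 CPM in wild-type, and those of Stc1 at 8.12 to 10.0 CPM in knockout and 5.31 to 5.79 CPM in wild-type.

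The coefficient of variation of Stc2 was 24.7% over knockout libraries, where counting alone gives 3.37%, and 14.2% over wild-type libraries, where counting alone gives 7.93%. For Stc1 it was 11.9% over knockout libraries, where counting gives 4.90%, and 4.45% over wild-type libraries, where counting gives 6.13%. Stc2 differed 1.66-fold between the highest and the lowest knockout library, and Stc1 differed 1.24-fold. Between wild-type libraries these ratios were 1.33-fold for Stc2 and 1.09-fold for Stc1. The exact 95% Poisson interval of the Stc2 count was 1055 to 1188 in KO3 and 120 to 167 in WT2, and intervals of this kind cover counting error only.

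The order of the 2 genes by level was not the same in the 2 groups. Per kb of exon, Stc2 was at 3.62 ± 0.894 CPM per kb (SD, n = 3) in knockout brains, against 0.640 ± 0.0911 CPM per kb (SD, n = 3) in wild-type brains. Stc1 was at 2.10 ± 0.251 CPM per kb (SD, n = 3) in knockout brains, against 1.32 ± 0.0587 CPM per kb (SD, n = 3) in wild-type brains. Stc2 was therefore the more abundant stanniocalcin transcript in each knockout library and the less abundant in each wild-type library. Per length, the ratio of Stc2 to Stc1 was 1.82, 1.41 and 1.89 in KO1, KO2 and KO3, against 0.527, 0.417 and 0.512 in WT1, WT2 and WT3. The ratio stood above 1 in 3 of 3 knockout libraries and below 1 in 3 of 3 wild-type libraries. Summed over both genes, the level was 5.72 ± 1.13 CPM per kb (SD, n = 3) in knockout brains and 1.96 ± 0.133 CPM per kb (SD, n = 3) in wild-type brains. Lengths are exon lengths of GENCODE M21, 5175 bases for Stc2 and 4197 bases for Stc1, since no source used here names the annotation behind the counts.

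Both were scarce transcripts for whole brain in either group. Among 15486 protein-coding genes tested, 39.8% had a lower level per length than Stc2 in knockout brains, against 15.7% in wild-type brains. For Stc1 these shares were 29.7% in knockout brains and 23.5% in wild-type brains. The median protein-coding gene was at 5.53 CPM per kb in knockout brains and 5.52 CPM per kb in wild-type brains, above either stanniocalcin.

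The direction held for both genes under each of 15 other settings. The groups did not overlap in either gene, so leaving out libraries could not turn it. Scaling factors ran from 0.986 to 1.018, so a change of scaling could hardly turn it either. Only the sizes are of use in those settings. The log2 fold change of Stc2 ran from 2.31 without KO3 to 2.67 without KO2. That of Stc1 ran from 0.57 without KO3 to 0.75 without the Krt5-high libraries, KO1 and WT1. Without the Hox-expressing libraries, WT2 and WT3, it was 2.32 for Stc2 and 0.61 for Stc1. With a term for sex, which rests on WT2, it was 2.39 for Stc2 and 0.67 for Stc1. Leaving out WT2 gave 2.40 for Stc2 and 0.67 for Stc1, so the sex term adds little to that setting. Each of these values differed from the reported one by less than 1 SD between replicates.

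**Figure D2:**
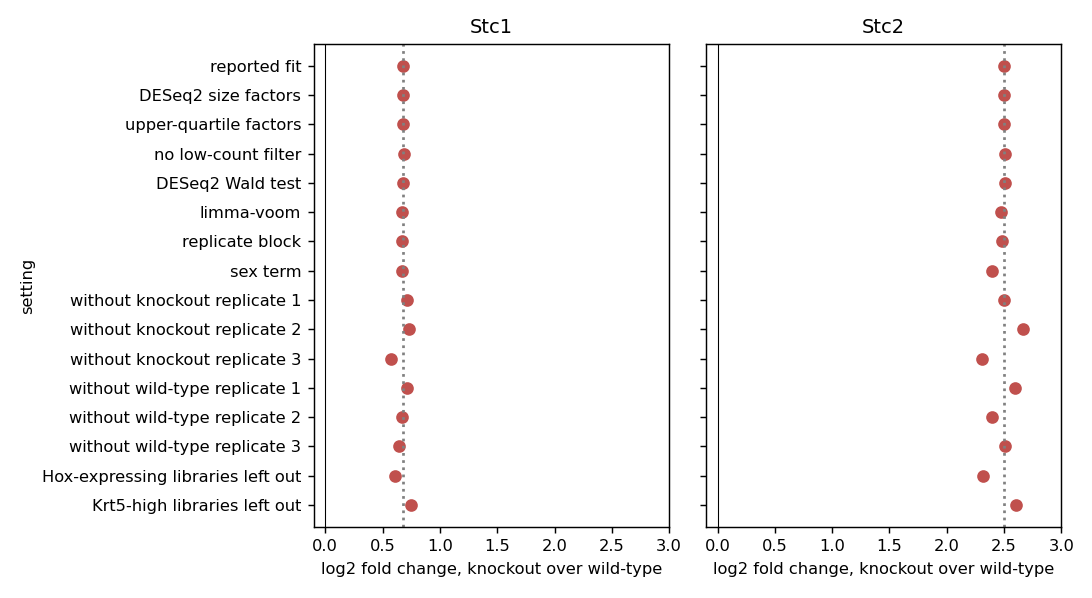
Log2 fold change of Stc1 (left) and Stc2 (right), knockout over wild-type, under the reported fit and 15 other settings. Each point is 1 setting, the dotted line is the reported value and the solid line is 0. Stc1 stays between 0.57 and 0.75 and Stc2 between 2.31 and 2.67.

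Endothelial markers also differed between the groups, with their sum higher in knockout, whereas the Hox sum above was lower. The 10 markers summed to 372 to 411 CPM in knockout libraries, against 291 to 351 CPM in wild-type libraries, and none was at 0 in any library. Of the 10, Pecam1, Emcn and Flt1 passed the edgeR test as higher and Cldn5 as lower, where 0.659% of all genes tested passed in either direction. The sums did not overlap between the groups, and their part in the stanniocalcin levels was not tested. Markers of cartilage and bone, tissues known to express stanniocalcins, summed to 116 to 179 CPM in knockout libraries, against 168 to 191 CPM in wild-type libraries. Skeletal muscle markers summed to 7.64 to 14.9 CPM in knockout libraries, against 10.0 to 34.9 CPM in wild-type libraries. Choroid plexus markers summed to 678 to 1427 CPM in knockout libraries, against 1028 to 1167 CPM in wild-type libraries. The sums of these last 3 lists overlapped between the groups. Red blood cell markers also overlapped, at 1792 to 3622 CPM in knockout libraries and 1171 to 2492 CPM in wild-type libraries.

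Stanniocalcin proteins act on the IGF axis. Of 16 of its genes, 13 were abundant enough to test, and 1 passed as higher in knockout brains, or 7.69% of those tested, against 0.624% of all genes. That gene was Igfbp7, a binding protein of low affinity for insulin-like growth factors and high expression in vessels. Igfbp7 was at 53.6 ± 6.59 CPM in the knockout group and 22.1 ± 2.29 CPM in the wild-type group (SD, n = 3 each), which is 1.28 higher on the log2 scale (SE 0.110, edgeR adjusted p = 0.00150). Without the Hox-expressing libraries, WT2 and WT3, its log2 fold change was 1.12 and the call was lost (edgeR adjusted p = 0.0555). The other 12 did not pass, and the median log2 fold change of the 13 was 0.18, against -0.01 over all genes tested. Igfbp5, a binding protein that PAPP-A cuts, was at 0.34 on the log2 scale (SE 0.0997, edgeR adjusted p = 0.343). It passed without WT1 (edgeR adjusted p = 0.0390). The receptor genes Insr and Igf1r had log2 fold changes of 0.21 and 0.18 (edgeR adjusted p = 0.379 and 0.632).

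Some genes of the axis were named for their role and not by rank. Pappa, the protease gene, was at 0.659 ± 0.0422 CPM per kb in knockout brains and 0.567 ± 0.0521 CPM per kb in wild-type brains (SD, n = 3 each). The Stc2 transcript was thus several times as abundant as Pappa per length in knockout brains, and the 2 were close in wild-type brains. Pappa2, the second protease of the family, was at 1.71 ± 0.221 CPM per kb in knockout brains and 1.52 ± 0.0888 CPM per kb in wild-type brains (SD, n = 3 each). Igfbp4, the main PAPP-A substrate, was at 28.4 ± 1.32 CPM per kb in knockout brains and 27.1 ± 3.26 CPM per kb in wild-type brains (SD, n = 3 each). Igf2, the main growth factor gene of the embryo, was at 89.1 ± 8.43 CPM per kb in knockout brains and 96.7 ± 20.8 CPM per kb in wild-type brains (SD, n = 3 each). None of these 4 passed the edgeR test, with adjusted p from 0.712 to 0.880. Prg2, whose product is the other protein known to bind PAPP-A covalently, was too scarce to test, at 0.0290 CPM in knockout brains and 0.0743 CPM in wild-type brains.

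**Figure D3:**
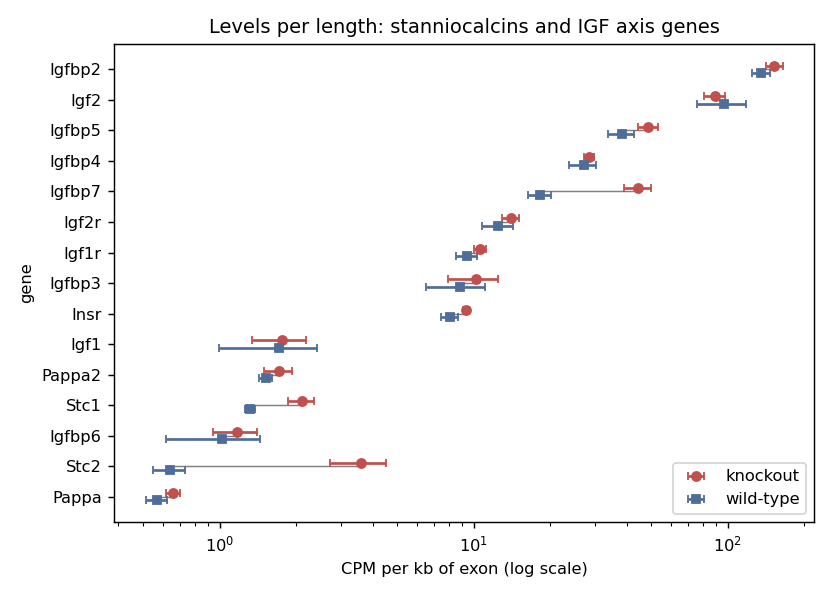
Mean level in CPM per kb of exon, on a log axis, of Stc1, Stc2 and the 13 tested genes of the IGF axis, in knockout (circles) and wild-type brains (squares), with SD bars (n = 3 each). Genes are ordered by their wild-type level. Stc2 sits just above Pappa in wild-type brains, and at 3.62 CPM per kb it lies above Stc1 and both PAPP-A family proteases in knockout brains.

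Calcium and phosphate genes stand for the classical action of these hormones. Of 40 on the list, 33 were tested and 0 passed in edgeR, against 0.659% of all genes in either direction. DESeq2 and limma-voom also called 0 of them, and 4 had an unadjusted p under 0.05 in edgeR, of which 2 were higher and 2 lower. Those were the phosphate exporter gene Xpr1 at 0.23, the calcium release channel genes Itpr1 at 0.22 and Itpr3 at -0.36, and Phex, an endopeptidase gene of phosphate balance, at -0.71 on the log2 scale (edgeR adjusted p from 0.346 to 0.550). Stim1, the calcium sensor that stanniocalcin 2 is known to bind, was at 0.09 on the log2 scale (SE 0.0690, edgeR adjusted p = 0.792). Without WT1, 1 member passed as lower, where 155 of all genes did. The share of all genes with an unadjusted p under 0.05 is not given here.

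Known inducers of the stanniocalcin genes were followed through their other targets. Of 29 hypoxia-inducible factor targets, all tested, 14 passed as higher in knockout brains, or 48.3%, against 0.624% of all genes. Their median log2 fold change was 0.82, close to the 0.67 of Stc1 and below the 2.50 of Stc2. The 6 with the lowest p-values were Pdk1, Pgk1, Bnip3, Ldha, Hk2 and Egln3, which act in pyruvate metabolism, glycolysis, mitophagy and oxygen sensing. Their log2 fold changes ran from 1.10 for Pgk1 to 1.90 for Bnip3, so each was between those of Stc1 and Stc2. In each library the median deviation of the list from its genes' means was 0.42, 0.17 and 0.65 in KO1, KO2 and KO3, against -0.42, -0.43 and -0.47 in WT1, WT2 and WT3 (log2 CPM). KO3 was the highest and KO2 the lowest of the knockout brains, the same order as in Stc2. The calcium and phosphate list, of which no gene passed, had this order too, at 0.0027, -0.030 and 0.043 in KO1, KO2 and KO3. The IGF axis list did not, at 0.064, 0.11 and 0.13. The 14 hypoxia-inducible factor targets that passed became 9 without KO1, 4 without WT2 and 6 without WT3. Over all genes, the 122 that passed as higher became 48, 33 and 40 in these settings. Hk2 lost its call without WT2 and with no filter on low counts (edgeR adjusted p = 0.0634 and 0.0803). Egln3 lost its call without WT2 or WT3 (edgeR adjusted p = 0.0711 and 0.0681). Without both Hox-expressing libraries 2 of the list passed, and Bnip3, Ldha, Hk2 and Egln3 lost their calls (edgeR adjusted p from 0.191 to 0.354). Without the Krt5-high libraries Bnip3 lost its call (edgeR adjusted p = 0.120). With the sex term 5 of the list passed, and Egln3 lost its call (edgeR adjusted p = 0.0734).

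Of 37 genes of the integrated stress and unfolded protein responses, 36 were tested and 6 passed as higher, or 16.7%, against 0.624% of all genes. The median log2 fold change was 0.20. Trib3, a pseudokinase induced by ATF4, was the 1 member with a larger change than Stc2, at 3.26 (SE 0.316, edgeR adjusted p = 0.00299). Atf3, a stress-induced transcription factor, changed by 1.84 (SE 0.217, edgeR adjusted p = 0.00868). The others were the transcription factor Atf5 at 0.69, the lipoprotein receptor Vldlr at 0.54, the mitochondrial serine enzyme Shmt2 at 0.41 and the stress protein Sesn2 at 0.65. The unfolded protein response genes Hspa5, Hsp90b1, Xbp1, Ern1, Atf6, Dnajb9, Pdia4, Sdf2l1, Herpud1, Creld2, Manf and Edem1 did not pass. The log2 fold changes of these unfolded protein response genes ran from -0.06 for Creld2 to 0.22 for Dnajb9. In each library the list's median deviation was 0.13, 0.016 and 0.18 in KO1, KO2 and KO3, against -0.095, -0.13 and -0.081 in WT1, WT2 and WT3 (log2 CPM). The knockout libraries stood in the order seen for Stc2. The calcium and phosphate list had that order too, so it was not particular to the stress list. The 6 became 2 without KO1, KO3 or WT3, and 1 without WT2. Over all genes, the 122 that passed as higher became 48, 38, 40 and 33 in these settings. Atf5, Vldlr, Shmt2 and Sesn2 lost their calls without KO1, WT2 or WT3, with edgeR adjusted p from 0.0712 to 0.281. Without KO3 the calls of Atf3, Atf5, Shmt2 and Sesn2 were lost (edgeR adjusted p from 0.0769 to 0.290). Atf3 was also lost without WT2 (edgeR adjusted p = 0.0711), and Shmt2 and Sesn2 without KO2 (edgeR adjusted p = 0.142 and 0.0693). With limma-voom 4 of the list passed, and Shmt2 and Sesn2 lost their calls (limma-voom adjusted p = 0.0577 and 0.0644). Without both Hox-expressing libraries 0 of the list passed, with adjusted p from 0.0936 to 0.364 for these 6 in edgeR, and with the sex term Trib3 alone passed.

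**Figure D4:**
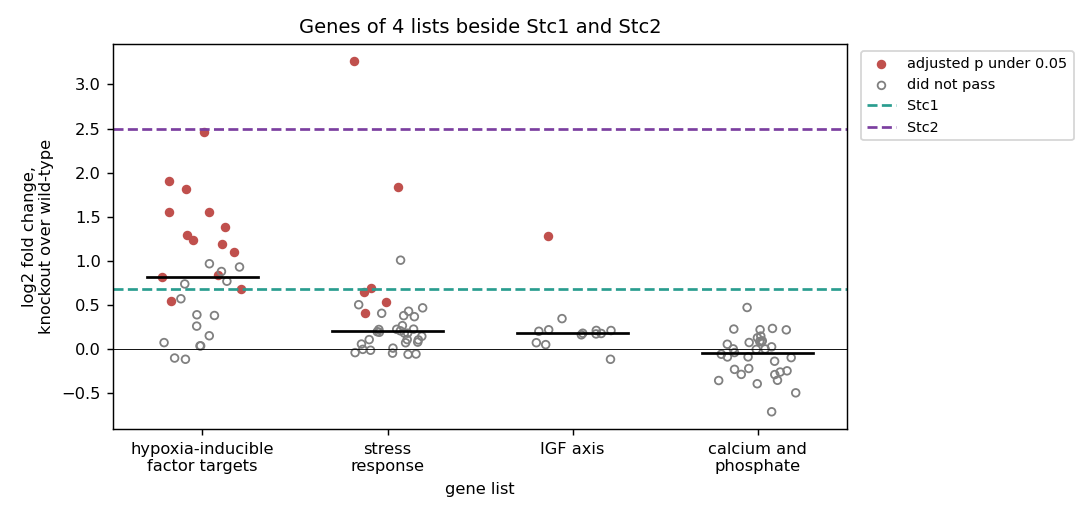
Log2 fold change, knockout over wild-type, of each tested gene on 4 lists, with Stc1 and Stc2 as dashed lines at 0.67 and 2.50. Filled points passed an adjusted p of 0.05 in edgeR, open points did not, and black bars are list medians. Of the hypoxia-inducible factor targets 14 of 29 are filled, of the stress response genes 6 of 36, of the IGF axis 1 of 13 and of the calcium and phosphate genes 0 of 33.

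The genes whose pattern over the 6 libraries was most like each stanniocalcin were found by Pearson's r of log2 CPM, among genes with a mean of at least 1 CPM. Since the groups are apart in Stc1 and Stc2, any gene with a clear group difference scores high, and r is a description. For Stc2 these were Lama4, a laminin chain of vessel basement membrane, Esm1, a proteoglycan of sprouting endothelium, the glycolytic genes Eno1 and Pgk1, and Odc1, which starts polyamine synthesis, with r from 0.996 to 0.997. Of these, Esm1 came nearest to Stc2 in size, at 7.35, 6.72 and 8.70 CPM in KO1, KO2 and KO3, against 1.67, 1.29 and 1.46 CPM in WT1, WT2 and WT3. In Esm1, as in Stc2, KO3 was highest and WT2 lowest. For Stc1 they were Adm, which encodes the peptide adrenomedullin, Mpzl1, a membrane glycoprotein gene, Egln3, Mgrn1, a ubiquitin ligase gene, and Slain2, a microtubule gene, with r from 0.996 to 0.999. Adm was at 5.40, 4.79 and 10.1 CPM in KO1, KO2 and KO3, against 1.38, 1.15 and 1.14 CPM in WT1, WT2 and WT3. A high r does not mean a difference of like size, since Mgrn1 had a log2 fold change of 0.055 and Adm one of 2.46. Stc1 and Stc2 had r = 0.984 with each other. In each other's ranking Stc2 stood at place 33 for Stc1, and Stc1 at place 61 for Stc2. In wild-type brains Stc1 was lowest in replicate 3 and Stc2 in replicate 2. The Poisson intervals of the wild-type counts overlapped for each gene, so these ranks may be counting error.

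**Figure D5:**
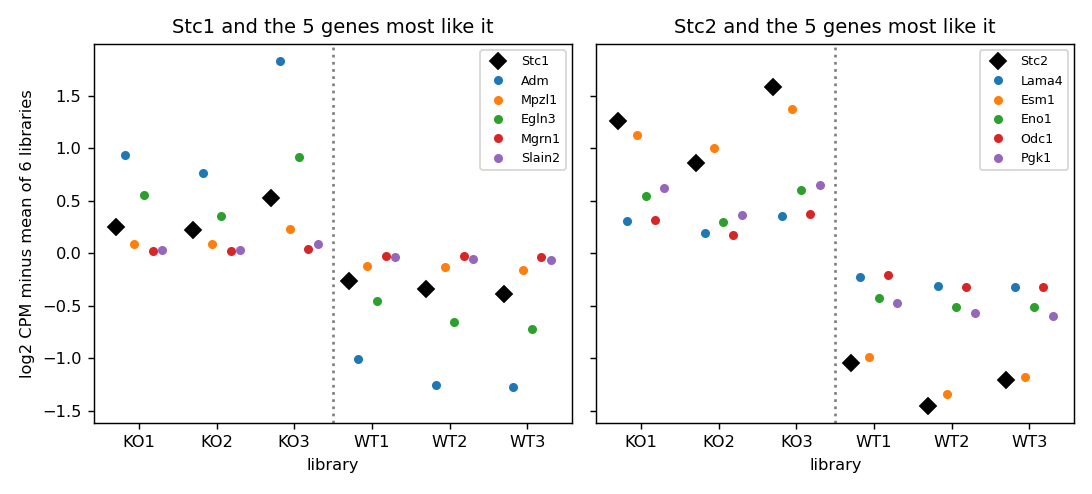
Log2 CPM minus the mean of the 6 libraries for Stc1 (left) and Stc2 (right), black diamonds, and for the 5 genes most like each (coloured points), by library, knockout (KO) left of wild-type (WT). In both panels each gene is above 0 in the 3 knockout libraries and below 0 in the 3 wild-type libraries, with KO3 highest.

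Neighbouring genes were looked at for both loci. Of 21 genes tested within 1 Mb of the start of Stc2, 0 passed in edgeR, where 0.659% of all genes passed in either direction. With so few genes, 0 is near that share and is no result about the locus. DESeq2 and limma-voom also called 0, and 2 had an unadjusted p under 0.05 in edgeR, of which 1 was higher. The share of all genes with an unadjusted p under 0.05 is not given here. The nearest tested coding genes to Stc2 were Bod1 at 302 kb and Chac2 at 384 kb, with log2 fold changes of -0.02 and -0.03 (edgeR adjusted p = 0.967 and 0.969). Around Stc1, 1 of 10 genes tested within 1 Mb passed, against 0.659% of all genes in either direction. It was Loxl2, a lysyl oxidase gene known to be induced by low oxygen, 580 kb away, at 1.35 on the log2 scale (SE 0.164, edgeR adjusted p = 0.00990). Its call was lost without KO1, KO3, WT2 or WT3 (edgeR adjusted p from 0.0543 to 0.0924), with the sex term (edgeR adjusted p = 0.0768) and without both Hox-expressing libraries (edgeR adjusted p = 0.223). DESeq2 called 3 of the 10 and limma-voom 1, and 4 had an unadjusted p under 0.05 in edgeR, 2 higher and 2 lower. Beside Loxl2 these 4 held Nefm at -0.57, Nefl at -0.43 and Tnfrsf10b at 0.82 (log2 scale, edgeR adjusted p from 0.139 to 0.374). The nearest tested coding genes to Stc1 were Slc25a37, a mitochondrial iron importer gene, at 256 kb, and Adam7 at 495 kb. Their log2 fold changes were 0.19 and -0.35 (edgeR adjusted p = 0.651 and 0.831). The median log2 fold change was 0.020 around Stc1 and 0.016 around Stc2.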

How the data were processed

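The authors deposited raw counts, 1 whole number per gene symbol and library. The submitters' processing notes name STAR 2.5.2a, featureCounts and DESeq2 1.12.4, with the builds mm10 and hg19 and no roles. No source used here states the strand setting or the annotation. Per the file headers, the authors' deposited table gives each gene's mean signal after size-factor scaling, log2 fold change with SE, Wald score and p-values.

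Genes were kept by filterByExpr and scaled by TMM in edgeR 4.0.16 (R 4.3.3), and tested across 19565 genes with the robust quasi-likelihood test and Benjamini-Hochberg adjustment. CPM uses TMM-scaled library sizes, and log2 CPM a prior count of 2. Positions and exon lengths are from GENCODE M21, with 48208 of 52459 symbols matched. Libraries held 43784619 to 50549673 counts, so counting error matters mainly for scarce genes. Groups follow the titles.

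The members, gene lists, alternatives and naming rule were chosen with earlier results of these data known. The rule names, per list, every gene past the threshold or the 6 lowest p-values, at least 4, the 5 genes most like each member, and near each locus the nearest tested coding gene on each side and any past the threshold. Alternatives were other scalings and filters, DESeq2 1.42.0, limma-voom (limma 3.58.1), a replicate block, a sex term and libraries left out.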

Additional observations from a re-analysis of the deposited data

How the results depend on the processing

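Stc1 and Stc2 kept their direction under all 15 alternatives, and no value moved by 1 SD between replicates. Leaving out libraries could not turn the direction, since the groups did not overlap. The scaling factors were so alike that other scalings could hardly turn it either. Without single libraries the log2 fold change was 0.57 to 0.73 for Stc1 and 2.31 to 2.67 for Stc2. The per-length ratio of Stc2 to Stc1 also moved by less than 1 SD with DESeq2 size factors or coding length.

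Counts of genes depended on the settings, and the causes were not tested. Over all genes, 129 passed, 122 higher and 7 lower. Testing with no filter on low counts gave 211, 190 and 21, and DESeq2 gave 309, 251 and 58. The sex term gave 37, 34 and 3. Without the Hox-expressing libraries, where the lone WT1 is taken to vary as the knockout libraries do, 20, 16 and 4 passed. Without the Krt5-high libraries, 459, 265 and 194 passed. Without single libraries 36 to 388 passed, 33 to 233 higher and 3 to 155 lower.

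The 14 hypoxia-inducible factor targets became 22 with DESeq2, 5 with the sex term, 2 without the Hox-expressing libraries and 4 to 16 without single libraries. The 6 stress response genes became 10 with DESeq2, 1 with the sex term, 0 without the Hox-expressing libraries, 10 without the Krt5-high libraries and 1 to 8 without single libraries. For the IGF axis, 0 passed without the Hox-expressing libraries, where Igfbp7 had an adjusted p of 0.0555 in edgeR, 2 without the Krt5-high libraries and 1 to 2 without single libraries. Of the calcium and phosphate genes, 1 was lower without the Krt5-high libraries and 0 to 1 without single libraries. Near the 2 loci, 1 gene became 2 with no filter, 3 with DESeq2, 0 with the sex term, 0 without the Hox-expressing libraries, 2 without the Krt5-high libraries, 0 to 2 without single libraries and 0 in a window of 500 kb.

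Directions turned for 4 genes that had not passed. Without single libraries Chac2 ran from -0.080 to 0.052 on the log2 scale, turning without KO1 (0.0062) or WT1. Bod1 ran from -0.069 to 0.066 and Igf2 from -0.21 to 0.073, both turning without WT1. Without the Krt5-high libraries Chac2 was at 0.087, Bod1 at 0.060 and Igf2 at 0.13, and Igfbp4 at -0.11 without the Hox-expressing libraries.

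Replicate numbers are not stated to pair the embryos, and deviations of same-numbered libraries correlated at 0.587, 0.310 and 0.034. KO2 was most like WT3 (0.478). A fit with the replicate block called 282 genes, of which 212 were higher and 70 lower, and 3 genes near the 2 loci. With the block the log2 fold change was 0.67 for Stc1 and 2.48 for Stc2.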
